A study of Mus musculus with 9 samples.

Results

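The deposited table of small RNA sequences from mouse RAW264.7 macrophages holds 130 distinct sequences named as an arm of a known miRNA hairpin for which that arm had no annotated miRNA. They were chosen by name alone: the name carries mir or let in lower case and ends, apart from any suffix, in -p5 or -p3. The rule found 143 rows, of which 13 repeated a sequence already counted, and the 130 that stayed make up 8.27% of the 1571 distinct sequences in the table. These sequences are called opposite arms here, after their names, and where each lies in its hairpin was checked against RefSeq and GENCODE.

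A miRNA is cut from the stem of a folded precursor, the hairpin. Drosha cuts the base of the stem in the nucleus, Dicer cuts the loop in the cytoplasm, and the resulting duplex has a 5p and a 3p arm. One arm is usually kept in Argonaute and pairs with mRNAs through its seed, while the other arm is usually degraded and is seen at a lower level. A hairpin whose second arm was never recorded has 1 annotated miRNA, and reads from the other side then receive a provisional name.

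Each of 3 groups had 3 libraries, all from wild-type cells of the RAW264.7 line, a mouse macrophage-like line, except that library 3 of the 10 µM group carries the cell line label RAW264.8. The controls received no ginsenoside Rd (GRd), a saponin of ginseng. The other groups were stimulated with lipopolysaccharide (LPS), the outer-membrane glycolipid of Gram-negative bacteria that macrophages sense through TLR4, for 6 h and then kept with GRd at 1 µM or 10 µM for 24 h. The treatment label of the controls says that they had neither LPS nor GRd, while their short description and the treatment protocol fit a 0 µM dose after LPS, so LPS and GRd cannot be told apart in a comparison with the controls. Nothing in the labels tells whether the 3 libraries of a group are separate cultures. A p-value here therefore reflects only the variation among these libraries, which may be technical.

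The sequences below were chosen because they show 4 of the kinds of place in which the members were found. Members are printed in the letters of the deposited table (T) and RefSeq sequences in RNA letters (U), on build GRCm38.p6, all 5′ to 3′. In the first set the capitals mark the seed, bases 2 to 8. These 3 members lie apart from the annotated miRNA of the hairpin and pair with it, and each is followed by that annotated miRNA.
mmu-mir-6240-p3: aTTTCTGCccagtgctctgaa
mmu-miR-6240: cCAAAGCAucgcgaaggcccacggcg
mmu-mir-3535-p3: aGATAGTCaagttctgatccag
mmu-miR-3535: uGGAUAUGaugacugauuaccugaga
mmu-mir-3473h-p3: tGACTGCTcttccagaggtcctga
mmu-miR-3473h-5p: uAGGGGCUggaaaggugacu
In the second set the whole hairpin is shown with the member in capitals, because in both hairpins the member fills the stretch between 2 annotated arms, which holds the loop.
Mir182 with mmu-mir-182-p3: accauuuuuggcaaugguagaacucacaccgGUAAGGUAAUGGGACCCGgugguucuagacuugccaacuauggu
Mir32 with hsa-mir-32-p3: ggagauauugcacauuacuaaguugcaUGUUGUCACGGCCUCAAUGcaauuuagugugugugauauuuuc
In the third set, again with the seed in capitals, the member overlaps an arm that RefSeq already annotates but starts at another base, so the seeds differ.
mmu-mir-690-p3: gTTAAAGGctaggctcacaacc
mmu-miR-690: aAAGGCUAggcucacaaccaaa
mmu-mir-6516-p3: tATGATACtgcaaacagga
mmu-miR-6516-3p: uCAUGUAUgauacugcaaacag
In the fourth set the member matched another kind of small RNA and no mouse hairpin of its number: the most abundant member, and the shortest and longest of 5 nested forms of 1 cattle-named member.
ssc-mir-1285-p3_1ss19TA: tAGCGAGAccccgtctcta
bta-mir-1246-p3_1ss2CT_1: aTATATTAaatggatttt
bta-mir-1246-p3_1ss2CT_5: aTATATTAaatggatttttgga

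Of the 130 members, 66 carried the mouse prefix and 64 the prefix of another species, most often human (15), cattle (14) and pig (8), with 14 prefixes in all. A substitution against the named hairpin was written into 73 of the names. A search with at most 1 mismatch placed 61 members in a mouse hairpin of their number, 43 in RefSeq and 18 in GENCODE vM21, and 58 of these carried the mouse prefix. The other 69 were not found in such a hairpin.

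Among the 44 members whose hairpin also held a placed annotated arm, 18 lay apart from it and paired with it in the predicted fold, as the second arm of a duplex does. A further 14 overlapped an annotated arm by at least 10 bases, 9 adjoined one (a gap of at most 2 bases or an overlap under 10), and 3 lay apart without pairing. The 14 include mmu-mir-5123-p5, whose overlap rests on letters that occur more than once in its hairpin. The name of an unrecorded arm thus matched the place for 18 of 44 members.

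The pairing members included those of miR-6240, miR-3535 and miR-3473h printed above. mmu-mir-6240-p3 covers bases 69 to 89 of the 117-base hairpin, against bases 26 to 51 for miR-6240, and lies at chr5:114852016-114852036 on the plus strand in Mir6240. Whether its letters also occur in the long ribosomal RNA precursor was not searched. mmu-mir-3473h-p3 covers bases 37 to 60 of a 61-base hairpin, against bases 1 to 20 for miR-3473h-5p, at chr3:116667558-116667581 on the minus strand in an intron of Gm43191. The letters of mmu-mir-3473h-p3 also occur in many other transcripts, so its reads may have come from several loci. mmu-mir-3535-p3 covers bases 99 to 120 of 147, against bases 41 to 66 for miR-3535, at chr1:86352008-86352029 on the minus strand within the gene of nucleolin (Ncl). That stretch is also the last 22 bases of the small nucleolar RNA Gm24148, which spans chr1:86352008-86352087. miR-3535 itself, at chr1:86352062-86352087, lies at the 5′ end of that same RNA.

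Of the 9 adjoining members, 3 filled the whole stretch between 2 annotated arms: those of miR-182, miR-32 and miR-6946. mmu-mir-182-p3 covers bases 32 to 49 of the 75-base hairpin, between miR-182-5p at 7 to 31 and miR-182-3p at 50 to 70, at chr6:30165944-30165961 on the minus strand. hsa-mir-32-p3 covers bases 28 to 46 of the 70-base hairpin, between arms at 6 to 27 and 47 to 67, at chr4:56895253-56895271 on the minus strand in an intron of Tmem245. Another 4 adjoining members began before the first arm, and mmu-mir-466k-p5 among them overlapped it by 5 bases. mmu-mir-500-p5, for example, covers bases 1 to 20 of Mir500 and ends where miR-500-5p begins at base 21.

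The overlapping members included mmu-mir-690-p3, which shares 19 bases with miR-690 and starts 3 bases before it, at chr16:28599943-28599964 on the minus strand in an intron of Fgf12. Its letters occur exactly in 13 GENCODE miRNA genes, so its reads may have come from several loci. mmu-mir-6516-p3 shares 17 bases with miR-6516-3p and starts 5 bases after it, at chr11:117077417-117077435 on the plus strand. It is also the last 19 bases of the small Cajal body RNA Gm26083 within Snhg20, a host gene of such RNAs. mmu-mir-3103-p3 shares 16 bases with miR-3103-3p, at chr7:128288376-128288395 on the minus strand in an intron of BC017158.

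**Figure D1:**
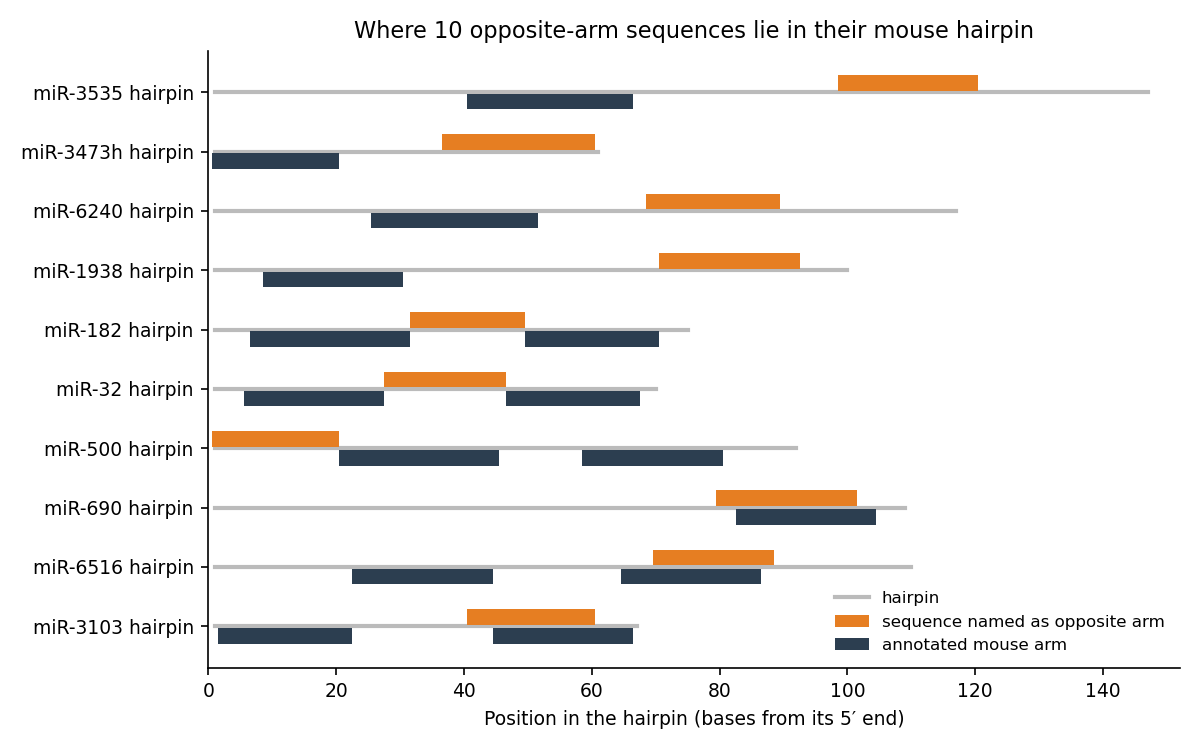
Position in the hairpin, in bases from its 5′ end, of the annotated arms and of the opposite-arm member in hairpins named in the text. The members of miR-6240, miR-3535 and miR-3473h lie apart from the annotated miRNA, those of miR-182 and miR-32 fill the gap between 2 annotated arms, and those of miR-690, miR-6516 and miR-3103 lie over an annotated arm.

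The letters of 24 members occurred exactly in a transcript of another small RNA class: 11 in the miscellaneous RNA class, 6 in spliceosomal snRNAs, 3 in small Cajal body RNAs, 3 in small nucleolar RNAs and 1 in a mitochondrial rRNA. With 1 mismatch allowed the count was 33, including 5 in 7SL, the RNA of the signal recognition particle. Those 33 members held 52.8 to 57.6% of the summed opposite-arm signal in each library, and the 5 that match 7SL held 41.8 to 47.2%. Per the labels' protocols the authors had removed reads of rRNA, tRNA, snRNA and snoRNA families before counting. Nuclear tRNA genes as a class and the long ribosomal RNA precursor were not searched. Matches to them of members such as efu-mir-9277-p3, mmu-mir-6236-p5 and mmu-mir-6240-p3 are therefore not known.

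ssc-mir-1285-p3_1ss19TA matched bases 282 to 300 of the 300-base 7SL transcript Rn7s1, so it ended at that RNA's 3′ end, with its last base, 19, mismatched. The members of miR-3535 and miR-6516 likewise ended at the last base of their snoRNA and scaRNA. The 5 nested forms of bta-mir-1246-p3 all began at base 86 of Rnu2-10, a U2 snRNA of 191 bases, and ended at bases 103 to 107. The 4 shorter forms had equal values in all 9 libraries, with a mean of 26.2 normalized counts. In all, 24 members shared all 9 values with another member, which left 116 distinct profiles.

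Members were shorter than sequences with an annotated miRNA name, with a median of 20 bases against 22 bases for the 1016 annotated-name sequences. Among members 62.3% had 18 to 20 bases and 30.8% had 21 to 23, against 21.2% and 71.2% of annotated-name sequences. A first G stood in 21.5% of members and 11% of annotated-name sequences, a first A in 20.8% and 29.4%, and a first T in 39.2% and 39.1%. The median GC content was 59.1% in members and 52.6% in annotated-name sequences. The seed of 29 members (22.3%) was that of an annotated mouse miRNA. These shares describe the table and were not tested.

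Values are the authors' normalized counts per sequence, and over the distinct sequences the 9 libraries sum to 6235670 to 6815350. Most members were rare. The median member averaged 4.504 normalized counts over the 9 libraries, against 5.93 for all sequences. A mean of at least 10 was reached by 50 members and 674 of all sequences, at least 100 by 16 and 335, and at least 1000 by 4 and 168. All 9 libraries held 47 members (36.2%) and 623 of all sequences (39.7%), while 27 members and 431 of all sequences were listed in a single library.

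As a check of the cell label, miRNAs known from macrophages and other blood cells (8 of 9 listed) summed to 696110 to 711722 normalized counts in controls, 654536 to 845034 at 1 µM and 409894 to 820265 at 10 µM. Fibroblast and muscle miRNAs (5 of 7) summed to 541 to 742 in controls, 646 to 657 at 1 µM and 658 to 4532 at 10 µM. The lowest macrophage sum and the highest fibroblast and muscle sum both belonged to library 3 of the 10 µM group, the one labelled RAW264.8. List members did not all move with these sums. In that library miR-21a-5p (194505), miR-146a-5p (94863.5), miR-155-5p (33780) and miR-142a-5p (2811) were lowest. miR-142a-3p (1191) was the highest of the 9 libraries, and miR-125a-5p (81932) was below control 3 alone. miR-214-3p (2654), miR-199a-3p (1218), miR-143-3p (647) and miR-206-3p (12.4) were highest there, while miR-133a-3p, miR-1a-3p and miR-145a-5p were listed at 0. Red cell and liver miRNAs (4 of 5) summed to 339 to 422 in controls, 448 to 634 at 1 µM and 486 to 1003 at 10 µM, again highest in that library. Epithelial miRNAs (3 of 3) lay between 1797 and 2536 in all libraries. In these bulk libraries, fewer cells of a type and less of a sequence per cell cannot be told apart.

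The most abundant member was ssc-mir-1285-p3_1ss19TA, the 7SL match, with 7458, 7424 and 15468 normalized counts in controls 1 to 3. At 1 µM it had 8247, 8678 and 8112, and at 10 µM 6411, 8770 and 13889. Control 3 and library 3 at 10 µM stood above the other 7 libraries. This single sequence held 40.7 to 46.0% of the opposite-arm signal.

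mmu-mir-6240-p3 came next, with 4003, 4055 and 7778 in controls, 4287, 3712 and 3289 at 1 µM, and 2846, 4615 and 7120 at 10 µM. mmu-mir-6236-p5 had 1192, 1143 and 2885 in controls, 1336, 1089 and 1146 at 1 µM, and 799, 1903 and 3371 at 10 µM. In both, the same 2 libraries were highest and the groups overlapped. mmu-mir-3535-p3 had 1107, 1097 and 1582 in controls, 1089, 929 and 983 at 1 µM, and 660, 903 and 1273 at 10 µM. All 3 of its values at 1 µM lay below those of the controls, while the 10 µM values spread across both.

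mmu-mir-690-p3 had 533, 517 and 732 in controls, 491, 522 and 351 at 1 µM, and 370, 531 and 2042 at 10 µM. Its mean at 10 µM, 981 ± 923 (SD, n = 3), rested on library 3. mmu-mir-6516-p3 behaved alike in that library, with 190, 139 and 271 in controls, 199, 138 and 125 at 1 µM, and 135, 139 and 472 at 10 µM.

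mmu-mir-3473h-p3 was the steadiest of the 10 members with the highest means. It averaged 412 ± 17.8 in controls, 327 ± 17.4 at 1 µM and 308 ± 15.5 at 10 µM (SD, n = 3 each), with values of 398 to 432 in controls, 308 to 342 at 1 µM and 290 to 320 at 10 µM. Every control lay above every GRd library, and the GRd groups overlapped each other.

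mmu-mir-182-p3, from the loop of the miR-182 hairpin, had 262, 300 and 387 in controls, 382, 493 and 384 at 1 µM, and 284, 344 and 90.9 at 10 µM. All 1 µM values exceeded all 10 µM values, and library 3 at 10 µM was the lowest of the 9. hsa-mir-32-p3, the other loop member, had 89.2, 100.9 and 102.1 in controls, 147, 179 and 129 at 1 µM, and 113, 139 and 56.5 at 10 µM, with library 3 at 10 µM again the lowest.

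**Figure D2:**
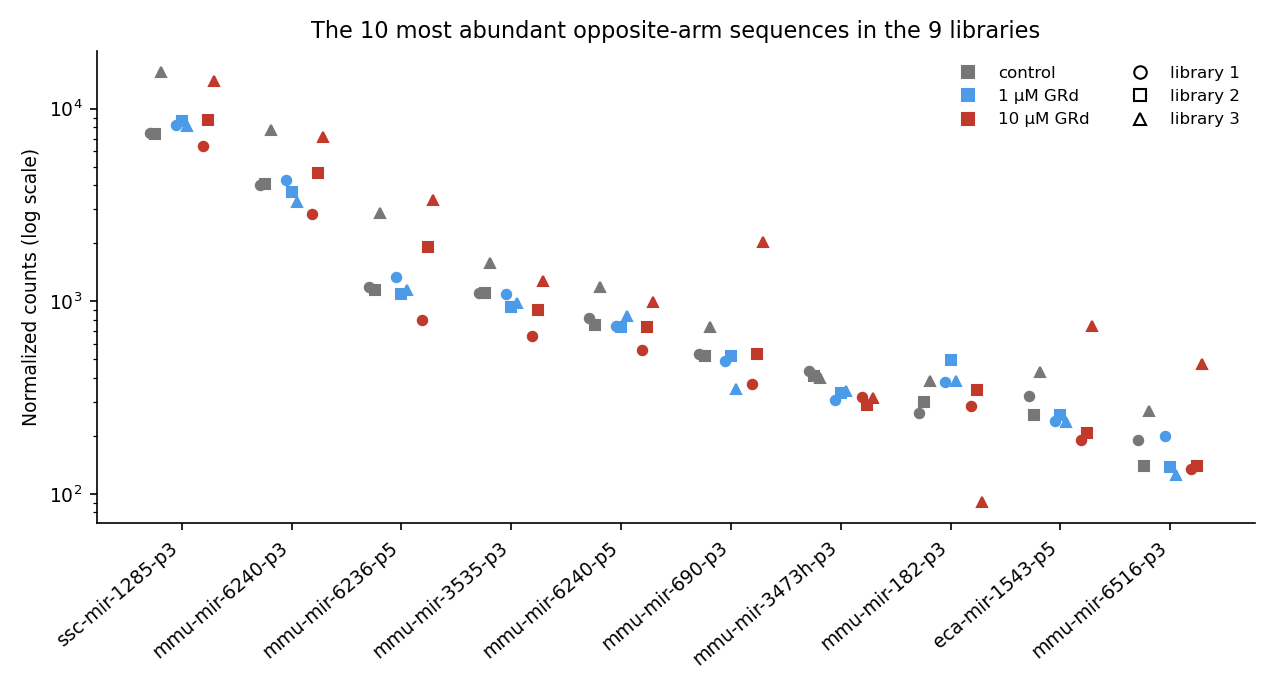
Normalized counts (log axis) in each of the 9 libraries, control, 1 µM and 10 µM, for the 10 opposite-arm members with the highest means; 1 point is 1 library. In 8 of the 10 members of highest mean, control 3 and library 3 at 10 µM are the 2 highest libraries, while mmu-mir-3473h-p3 keeps its controls above its GRd libraries.

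Control 3 and library 3 at 10 µM were the 2 highest libraries for 11 of the 50 members with a mean of at least 10 (22%), and for 42 of the 674 sequences of that level (6.23%). Library 3 at 10 µM alone was highest for 20 members (40%) against 34.4% of all sequences, and library 1 at 10 µM was lowest for 16 (32%) against 14.2%. From the spacing of low values, control 3 and library 3 at 10 µM had the fewest reads of the 9 libraries, an estimated 4933050 and 4947260, and library 1 at 10 µM the most, 9213690. The part of depth in these levels was not tested.

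The opposite arms held 0.285, 0.289 and 0.514% of the summed signal in controls, 0.311, 0.307 and 0.271% at 1 µM, and 0.223, 0.322 and 0.483% at 10 µM. Group means were 0.363 ± 0.131% in controls, 0.296 ± 0.0217% at 1 µM and 0.342 ± 0.131% at 10 µM (SD, n = 3 each). The groups differed by less than the spread between libraries. Without ssc-mir-1285-p3_1ss19TA the means were 0.206 ± 0.0625% in controls, 0.165 ± 0.0163% at 1 µM and 0.196 ± 0.0787% at 10 µM. Libraries held 62 to 90 of the members in controls, 67 to 83 at 1 µM and 76 to 87 at 10 µM.

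**Figure D3:**
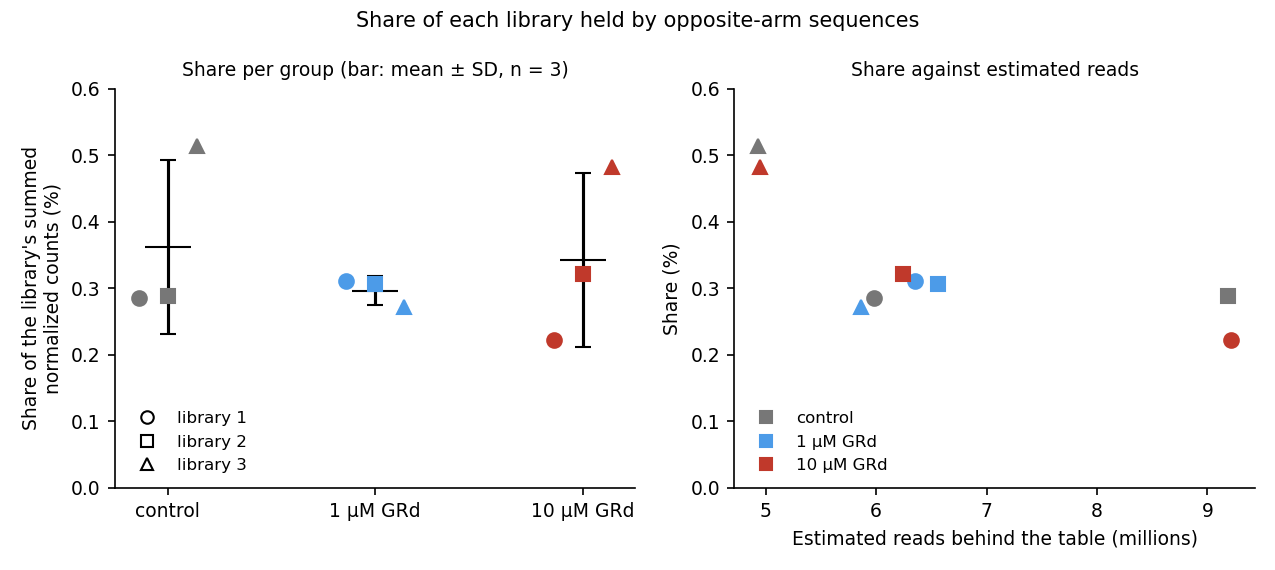
Percent of each library's summed normalized counts held by the opposite arms, by group (control, 1 µM, 10 µM), with points for libraries and the group mean ± SD. Control 3 (0.514%) and library 3 at 10 µM (0.483%) lie above the other 7 libraries, which span 0.223 to 0.322%.

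The table held both a member and the annotated arm under the same species prefix for 38 pairs, each counted as a hairpin here. Of these, 37 passed the filter on low values, a group mean of 1 or more in each arm. bta-mir-2904-2, efu-mir-9277 and efu-mir-9226 each appear as p3 and as p5 against the same annotated rows, which the counts below therefore reuse. Their annotated names carry no arm suffix, so which member is the opposite arm is not known. For efu-mir-9277, p3 was called higher and p5 lower. The opposite arm was above the annotated one in 12 of 38 hairpins. limma, fitted with the 192 hairpins whose arms are both annotated, called 30 of the 37 differences between arms at an adjusted p under 0.05 (81.1%), against 185 of all 229 hairpins (80.8%). The opposite arm was higher in 7 of the 30 and lower in 23, with a median log2 difference of -1.85. Over all 229 hairpins the first-named arm (opposite, or 5p where both are annotated) was higher in 40.6% and lower in 40.2%. The median fold between arms, whichever was higher, was 8.26 in the opposite-arm hairpins and 6.86 in those with both arms annotated. The lesser arm held a median of 9.33% of the hairpin's signal in the 38 hairpins and 10.5% in the 192. Which arm was annotated in the past may follow from which was seen more, so the sign of this difference is not independent of the naming.

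By place, the 15 tested hairpins with a member that paired with the annotated arm had 2 calls higher and 12 lower, with a median of -2.16. The 4 with a member over an annotated arm had 2 higher and 0 lower, with a median of 1.67. In 1 of these, miR-5123, the member has the same letters as the start of the miRNA it is compared with. The hairpin is a repeat that holds those letters more than once. They occur at the RefSeq place of miR-5123, chr4:40850057-40850080, and at chr4:40850103-40850124, where the member was placed. Its overlap with miR-5123 therefore rests on the letters, and its reads cannot be assigned to either place. Of the 12 whose member was not found in a mouse hairpin of its number, 2 were higher and 8 lower.

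The 2 paired opposite arms called above the annotated partner were those of miR-3473h and miR-3535. miR-3473h-5p had 66.9, 78.3 and 49.1 normalized counts in controls, 70.1, 65.6 and 67.9 at 1 µM, and 74.6, 63.5 and 93.7 at 10 µM, all below the lowest opposite-arm value of 290. The opposite arm averaged 349 and the annotated arm 70.0, a log2 difference of 2.31 [2.02, 2.60] (95% interval) with an adjusted p of 3.71e-10 by limma. mmu-mir-3535-p3 averaged 1069 and miR-3535 averaged 699, a log2 difference of 0.80 [0.43, 1.17] (limma adjusted p 0.000616). miR-3535 had 710, 590 and 440 in controls, 457, 526 and 406 at 1 µM, and 726, 372 and 2061 at 10 µM. The order was turned round in libraries 1 and 3 at 10 µM, where the annotated arm was the higher. Both miR-3535 sequences lie within the small nucleolar RNA Gm24148. Whether their reads came from a hairpin or from that RNA was not tested.

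The 2 loop members differed in sign against the annotated 5p arm. mmu-mir-182-p3 averaged 325 against 20268 for miR-182-5p, a miRNA known from sensory cells, a log2 difference of -6.04 [-6.47, -5.61] (limma adjusted p 3.35e-13). hsa-mir-32-p3 averaged 117 against 12.2 for miR-32-5p, a log2 difference of 3.22 [2.60, 3.85] (limma adjusted p 7.22e-08). miR-32-5p, which in human cells targets the mRNA of the pro-apoptotic protein BIM, had 5.49 to 13.8 in controls, 6.91 to 20.0 at 1 µM and 9.64 to 21.6 at 10 µM, under the loop sequence in every library.

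mmu-mir-6516-p3 averaged 201 against 30.0 for miR-6516-5p (log2 difference 2.64, limma adjusted p 2.17e-06). As shown above, these reads lie over the annotated 3p arm and at the end of a small Cajal body RNA. efu-mir-9277-p3, not found in a mouse hairpin of its number although its letters occur in 2 GENCODE miRNA genes, averaged 136 against 7.26 for its annotated arm (log2 difference 3.94, limma adjusted p 1.04e-07). Whether efu-mir-9277-p3 matches a nuclear tRNA gene was not searched. The remaining calls in this direction were the members of miR-7011, over an annotated arm, and bta-mir-2904-2-p3_1ss15TC, at 16.2 against 7.87. mmu-mir-7011-p3 averaged 15.0, while miR-7011-5p was listed in control 2 alone, at 3.43. The log2 difference of the miR-7011 arms ran from 1.23 to 6.56 over the alternatives run. The limma adjusted p of bta-mir-2904-2-p3_1ss15TC was 0.032, in a range of 0.000257 to 0.0894 over the alternatives run. mmu-mir-6239-p5 averaged 20.4 against 17.9 (log2 difference 0.18, limma adjusted p 0.547). mmu-mir-1938-p3 averaged 37.2 against 26.1, a log2 difference of 0.59 [0.02, 1.15] whose limma adjusted p was 0.0516, in a range of 0.0189 to 0.165 over the alternatives run.

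Among the 23 lower opposite arms, several had almost no signal beside an abundant partner. mmu-mir-484-p3 was listed in library 3 at 10 µM alone, at 8.26, while miR-484 averaged 68129. The members of miR-8114, miR-8112 and miR-935 averaged 6.90, 1.502 and 4.67, against 1726, 924 and 807 for their annotated arms. Less uneven hairpins were those of miR-1983, at 14.9 against 351, and miR-3473d, at 80.9 against 172. Differences against arms near 0 depend on the pseudocount.

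**Figure D4:**
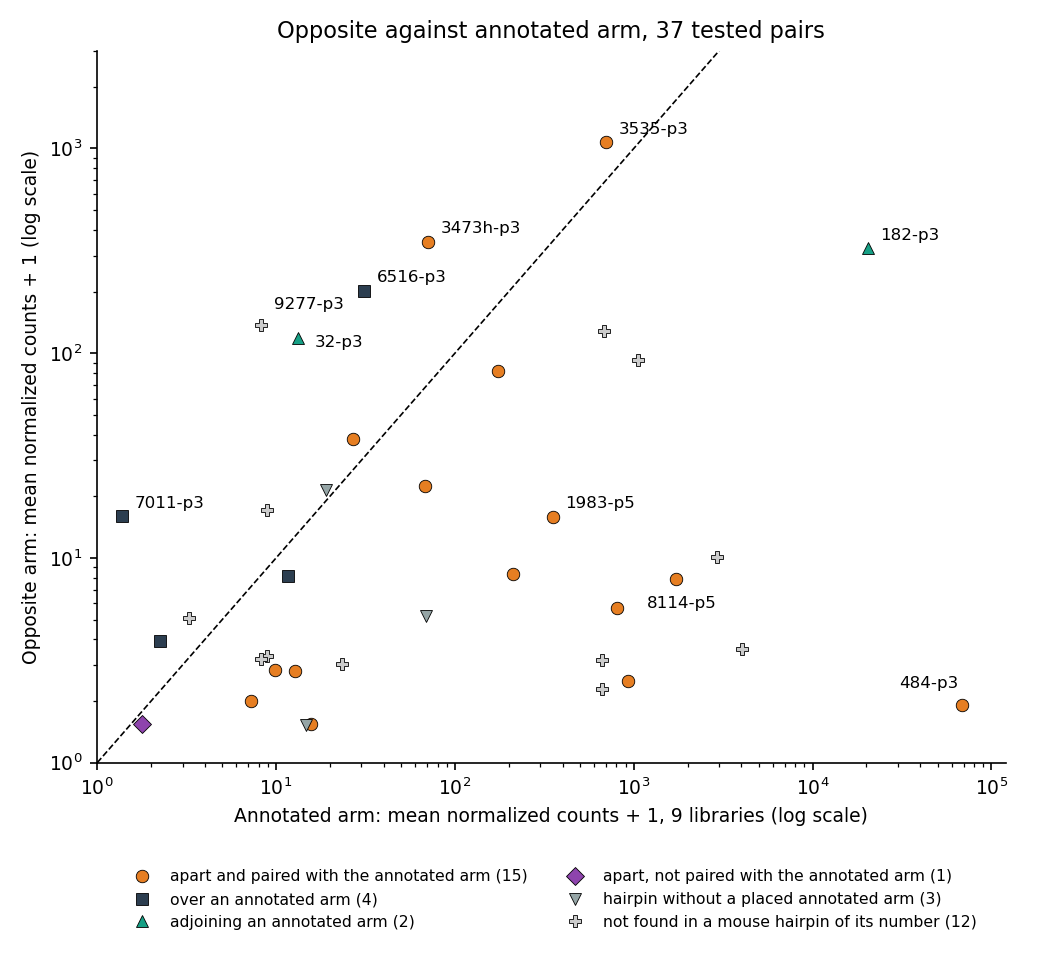
Mean over 9 libraries of the opposite arm (y) against the annotated arm of the same hairpin (x), in normalized counts plus 1 on log axes, for the 37 tested pairs, marked by place, with the dashed diagonal of equal level. Points above the diagonal include the members of miR-3473h, miR-3535, miR-32 and miR-6516, and those far below it include miR-182 and miR-484.

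The first comparison asked whether opposite arms differed after LPS and 10 µM GRd from the controls. limma called 0 of 125 members tested at an adjusted p under 0.05, and 0% of all 1561 sequences. At an unadjusted p under 0.05 it counted 7 members (5.60%), against 86 of all sequences (5.51%), so the members' share was near the background. Of the 7, 5 were higher (background 3.78%) and 2 lower (background 1.73%). The median log2 difference was 0.07 over the members and 0.14 over all sequences. The 10 members of highest mean had log2 differences between -0.59 and 0.33. All 10 µM values lay above all control values for 3 members, against 3.72% of all sequences, and below them for 4, against 2.56%.

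The smallest p among members with a mean of at least 5 belonged to efu-mir-9277-p3_1ss8CT. It had 112, 54.3 and 42.7 normalized counts at 10 µM against 231, 172 and 123 in controls, so the groups did not overlap. The log2 difference was -1.40 ± 0.36 (SE) with a 95% interval of -2.15 to -0.65, an unadjusted p of 0.00103 and a limma adjusted p of 0.537. Without library 1 at 10 µM it was -1.80 with a limma adjusted p of 0.0158, and without library 3 it was -1.12 (limma adjusted p 0.438), in a range of 0.0158 to 0.855 over the alternatives run.

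mmu-mir-3471-2-p3_1ss13AC had 11.2, 5.12 and 34.4 at 10 µM and was listed at 0 in all 3 controls (unadjusted p 0.00345, limma adjusted p 0.538). mmu-mir-3103-p3 had 18.1, 26.6 and 48.2 at 10 µM against 6.37, 13.7 and 0 in controls (log2 difference 2.63 ± 0.93, limma adjusted p 0.665). In both members all 10 µM values lay above the controls, at levels where few reads stand behind each value. mmu-mir-3473h-p3 lay below the controls in all 3 libraries at 10 µM, with a log2 difference of -0.42 [-0.83, -0.01] (limma adjusted p 0.665). mmu-mir-3535-p3 differed by -0.45, and by -0.69 without library 3 at 10 µM (limma adjusted p 0.426).

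The second comparison set 1 µM GRd after LPS against the controls. limma again called 0 of 125 members and 0% of all sequences, and 1 member (0.80%) had an unadjusted p under 0.05, against 1.79% of all sequences. That member was higher (background 1.22%), and 0 were lower (background 0.577%). The median log2 difference was 0.00 in members and in all sequences. All 1 µM values lay above the controls for 4 members, against 5% of all sequences, and below them for 4, against 2.56%. The 4 above were hsa-mir-32-p3, mmu-mir-6239-p5_1ss2GC, bta-mir-2904-2-p3 and the ppy-mir-1268 p5 member. The 4 below included mmu-mir-3535-p3 and mmu-mir-3473h-p3.

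hsa-mir-32-p3 averaged 151.6 ± 25.1 at 1 µM against 97.4 ± 7.14 in controls (SD, n = 3 each), a log2 difference of 0.62 [-0.06, 1.31] (limma adjusted p 1). mmu-mir-3103-p3 had 36.5, 5.70 and 20.0 at 1 µM, overlapping the controls, with a log2 difference of 1.87 ± 0.93 (limma adjusted p 1). bta-mir-2904-2-p3, a different sequence from bta-mir-2904-2-p3_1ss15TC and one listed under both arms, had 10.9, 5.23 and 7.80 at 1 µM against 0, 2.75 and 0 in controls (limma adjusted p 1).

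The third comparison set 10 µM against 1 µM. limma called 0 of 125 members and 0% of all sequences, and 6 members (4.80%) had an unadjusted p under 0.05, against 4.8% of all sequences. Of the 6, 3 were higher (background 2.88%) and 3 lower (background 1.92%). The median log2 difference was 0.07 in members and 0.15 in all sequences. All 10 µM values lay above the 1 µM values for 2 members, against 3.59% of all sequences, and below them for 3, against 3.2%.

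efu-mir-9277-p3_1ss8CT averaged 69.5 ± 36.8 at 10 µM against 162 ± 40.6 at 1 µM (SD, n = 3 each), a log2 difference of -1.30 ± 0.36 (limma adjusted p 0.683). Without library 1 at 10 µM it was -1.70 (limma adjusted p 0.0408), in a range of 0.0408 to 0.844 over the alternatives run. mmu-mir-182-p3 averaged 240 ± 132 at 10 µM against 420 ± 63.7 at 1 µM, a log2 difference of -1.0 [-1.76, -0.24] (limma adjusted p 0.683). Without library 3 at 10 µM that difference was -0.41 (limma adjusted p 0.665). mmu-mir-3471-2-p3_1ss13AC was listed in library 2 alone at 1 µM, at 4.75.

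**Figure D5:**
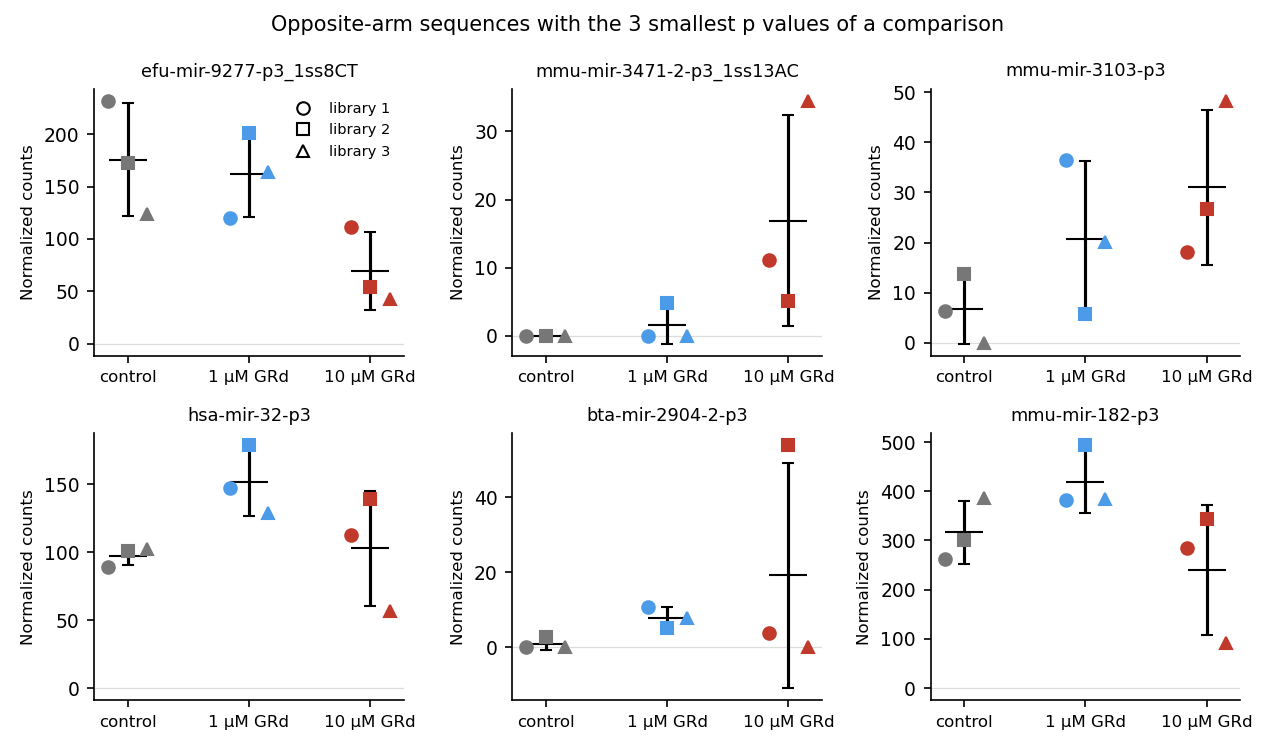
Normalized counts in each of the 9 libraries (control, 1 µM, 10 µM; points, with lines for the group mean ± SD) for the members of smallest unadjusted p among those with a mean of at least 5. efu-mir-9277-p3_1ss8CT has its 3 values at 10 µM below all others, and with all 9 libraries fitted no difference shown has a limma adjusted p under 0.05.

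The ratio of opposite to annotated arm asks whether the balance of a hairpin moved, whatever its total. limma called 0 of 229 ratios (0%) in each of the 3 comparisons. At an unadjusted p under 0.05 it counted 3 of 37 opposite-arm hairpins when 10 µM was set against control, 0 when 1 µM was, and 3 when 10 µM was set against 1 µM. Over all 229 hairpins the shares were 6.11%, 2.62% and 7.86%.

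The ratio with the smallest p was that of bta-mir-1246-p3, whose opposite arm is a sum of 5 rows, 4 of them equal-valued nested forms. The annotated arm had 56.5, 4761 and 796 normalized counts at 10 µM against 102, 100.9 and 22.5 in controls. The summed opposite arm had 62.4, 173 and 69.6 at 10 µM against 123, 139 and 219 in controls, so the ratio moved mainly with the annotated arm in libraries 2 and 3. The log2 ratio differed by -4.03 ± 0.99 between 10 µM and control (limma adjusted p 0.137). Without library 1 at 10 µM it was -5.46 (limma adjusted p 0.0015), in a range of 0.0015 to 0.506 over the alternatives run. Against 1 µM, where the annotated arm had 110, 87.4 and 95.8, the difference was -2.97 ± 0.99 (limma adjusted p 0.435). Without library 1 at 10 µM it was -4.39 (limma adjusted p 0.0122), in a range of 0.0122 to 0.722.

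The miR-3535 ratio differed by -0.98 ± 0.42 between 10 µM and control (limma adjusted p 0.634), and by -0.56 without library 3 at 10 µM, where miR-3535 was highest. Its arms are the ends of the small nucleolar RNA Gm24148, as given above. The miR-182 ratio differed by -1.44 ± 0.49 between 10 µM and 1 µM (limma adjusted p 0.435), and by -0.76 without that library. miR-182-5p had 26087, 16391 and 25011 at 10 µM against 14303, 15798 and 19065 at 1 µM. The miR-182 ratio had its smallest p at 10 µM against 1 µM, and between 1 µM and control it differed by 0.82 (limma adjusted p 1).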

How the data were processed

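Small RNA libraries from 9 samples, 3 in each of 3 groups, were used. The labels' protocols name TruSeq Small RNA kits, an Illumina HiSeq instrument and read filtering with the ACGT101-miR program. The deposited signal values are the authors' normalized counts per sequence. They were not whole reads, so tests for counts were not run and depth is an estimate. Their normalization, the miRBase release, the mapping and the build are not stated in the sources used here.

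Members and lists were chosen with earlier results of these data known. Each of 37 repeated rows was counted once. limma 3.58.1 (R 4.3.3) was fitted to log2(value + 1) of the 1561 sequences with a group mean of 1 or more, over all 9 libraries, with a trended prior variance and an adjusted p (Benjamini-Hochberg) under 0.05 as the threshold. The pseudocount shrinks differences of rare sequences. Sequences with no residual variance were dropped from a fit, which was decided after seeing the data. Arm ratios are log2((opposite + 1)/(annotated + 1)) per hairpin, with an arm summed over its rows and sequences listed under both arms left out, and the difference between arms is the mean of the 3 group means of that ratio. The fits were tested on simulated data.

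The text names the 10 members of highest mean, the 3 of smallest p per comparison among those with a mean of at least 5, the 3 arm ratios of smallest p per comparison, and up to 8 hairpins whose opposite arm had the higher mean. Members outside that rule were chosen after their values were seen. Members were placed with at most 1 mismatch in hairpins of their number from RefSeq (GRCm38.p6) and GENCODE vM21, and pairing was predicted with RNAfold 2.7.2, where at least 8 paired bases counted. Alternatives were other pseudocounts, filters, scalings, weights and sets of libraries.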

Additional observations from a re-analysis of the deposited data

How the results depend on the processing

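Over the 65 named results, 1256 of 1307 alternative values kept their direction and their side of the threshold, 13 crossed to below 0.05, 15 crossed to above it and 23 changed sign, and the cause was not tested. For 10 µM against control, with 0 sequences called, no trend gave 1, and leaving out 1 library gave 0 to 13 (members 0 to 1, arm ratios 0 to 1, opposite-arm ratios 0 to 1). The 13 came without library 1 at 10 µM. For 1 µM against control, no trend gave 2 and array weights 4. For 10 µM against 1 µM, no trend gave 2, and leaving out 1 library gave 0 to 9 (members 0 to 1, arm ratios 0 to 1, opposite-arm ratios 0 to 1). With a mean of at least 10 required, fewer hairpins were tested and 118 in place of 185 differed between arms, 13 in place of 30 of the opposite-arm ones. With mouse-prefix members alone the share was 0.178% in controls, 0.139% at 1 µM and 0.171% at 10 µM, without the highest member, a setting chosen after seeing the data, 0.206%, 0.165% and 0.196%, and with repeats kept 0.274% at 1 µM. Sign changes in the uncalled difference between 10 µM and control, when 1 library was left out, gave ranges of -0.34 to 0.31 for ssc-mir-1285-p3, -0.47 to 0.19 for mmu-mir-6240-p3, -0.36 to 0.68 for mmu-mir-6236-p5, -0.40 to 0.83 for mmu-mir-690-p3, -0.95 to 0.0025 for mmu-mir-182-p3, -0.73 to 0.25 for eca-mir-1543-p5 and -0.49 to 0.41 for mmu-mir-6516-p3. Array weights gave -0.0594 for mmu-mir-6236-p5, -0.13 for mmu-mir-690-p3 and -0.25 for mmu-mir-6516-p3. The difference between arms ran from -0.31 to 0.047 for mmu-mir-5122-p3 and from -0.46 to 0.31 for mmu-mir-5123-p5, which a pseudocount of 0.1 put at 0.24. The labels do not say whether library numbers pair the samples. Correlations of same-numbered deviations lay between -0.07 and 0.03 over all tested sequences, and those of different-numbered ones between -0.10 and 0.10. Among sequences with a mean of at least 50 the same-numbered correlations lay between -0.32 and 0.16, the different-numbered ones between -0.26 and 0.34. Deviations were taken from means of 3 libraries, so these values cannot decide whether the samples are paired. With the replicate block 0 sequences were called in each comparison by limma. At an unadjusted p under 0.05 it counted 69 (10 µM against control), 25 (1 µM against control) and 71 (10 µM against 1 µM). With 3 libraries a group and an estimated depth, a miss of the threshold does not show that members were alike.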

Other observations

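mmu-mir-3970-p5_1ss7TA carries the seed of let-7, the miRNA family that in mammals represses Lin28 and Ras mRNAs. The capitals below mark that seed, and the substitution in the sequence's name lies within it. The Mir3970 hairpin itself therefore does not carry the let-7 seed at that place. Whether these reads came from Mir3970 or from a let-7 hairpin was not tested. It was listed in 5 of 9 libraries, at a mean of 6.10 normalized counts over the 9, and reached 23.4 in 1 library with 1 µM GRd.
mmu-mir-3970-p5_1ss7TA: tGAGGTAGtagtttgtgctt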
